A study of Rattus norvegicus with 12 samples.

Results

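Chronic atrophic gastritis in rats was compared with normal gastric mucosa over all mature miRNAs of a small RNA sequencing table. The 8 libraries, 4 of model mucosa and 4 of normal mucosa, were those whose raw counts stand in the table of both groups, out of 12 libraries in the series. Normal rats had no treatment. Model rats had the mutagen MNNG (N-methyl-N'-nitro-N-nitrosoguanidine), which alkylates DNA, in their drinking water for 24 weeks at 180 µg/ml, received 2% sodium salicylate by gavage, and were fed for 2 days and fasted for 1 day in alternation. Both groups gave total RNA from gastric mucosa with an RNA integrity number above 7.0. Nothing in the labels says that each library is from another rat, so the p-values measure the spread between these libraries, which may be technical. They name no processing batch.

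Atrophic gastritis is a loss of the acid-secreting and enzyme-secreting glands of the stomach under long-standing inflammation, and it can precede gastric cancer. A miRNA is cut from a hairpin precursor as a 5p or a 3p arm, is loaded into Argonaute and lowers the output of mRNAs that pair with its seed, bases 2 to 8. Many miRNAs mark cell types, such as miR-143 and miR-145 in smooth muscle, the miR-200 family in epithelium, miR-375 in endocrine and gastric epithelial cells and miR-142 in blood-derived cells. The mucosa is a mixture of these, and in bulk RNA fewer cells of a type and less RNA per cell cannot be told apart.

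The sequences of the miRNAs on which the results turn are given first, from the RefSeq table for rat build GRCr8, 5′ to 3′, with the seed in capitals. RefSeq entries were found for 579 of the 639 miRNAs in the table, holding 91.8% of all counts. The first set is shown because miR-20a-3p alone passed the test and the miRNAs next to it are its close relatives. miR-20a-3p lies at chr15:98588354-98588374 on the plus strand, and miR-20b-3p at chrX:137343202-137343223 on the minus strand.
miR-20a-3p: aCUGCAUUacgagcacuuaca
miR-20b-3p: aCUGCAGUgugagcacuucugg
miR-17-1-3p: aCUGCAGUgaaggcacuugugg
miR-20a-5p: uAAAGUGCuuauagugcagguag

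The sequences of miR-20a-3p and miR-20b-3p were identical at 15 of 21 positions counted from the 5′ end, and their seeds differed. miR-20b-3p and miR-17-1-3p had the same seed and were identical at 18 of 22 positions.

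The second set holds the arms of the miR-34b and miR-34c hairpins, which lie close together on chromosome 8, with miR-34b-3p at chr8:60306621-60306642 and miR-34c-3p at chr8:60306101-60306122, both on the minus strand. Their 3p arms share a seed and were identical at 17 of 22 positions. Their 5p arms share another seed, that of miR-34a-5p, and were identical at 21 of 23 positions.
miR-34b-3p: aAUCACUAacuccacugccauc
miR-34c-3p: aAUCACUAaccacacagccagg
miR-34b-5p: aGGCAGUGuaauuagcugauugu
miR-34c-5p: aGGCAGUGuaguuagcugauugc

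The third set holds miRNAs with the next smallest p-values or with groups that did not overlap. miR-204-5p is shown with miR-211-5p, which has the same seed and was identical to it at 21 of 22 positions. miR-320-3p and miR-344a-3p are named without a sequence.
miR-551b-3p: gGCGACCCauacuugguuucagu
miR-204-5p: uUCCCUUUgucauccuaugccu
miR-211-5p: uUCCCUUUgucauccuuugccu
miR-139-5p: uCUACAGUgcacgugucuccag
miR-155-5p: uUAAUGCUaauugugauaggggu
miR-375-3p: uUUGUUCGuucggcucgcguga

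The libraries held between 9931471 and 11556061 counts and detected 530 to 562 miRNAs each. Of the 639 miRNAs, 403 passed the filter on low counts and were tested. Levels below are CPM, counts scaled to a common library size with TMM factors, and fold changes are model over normal on the log2 scale. Libraries are numbered 1 to 4 within each group as in their titles, and values are given in that order. Among the model libraries, 2 and 3 lay farthest from the normal libraries, and results that rest on them are given with and without them.

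The separation of the 2 groups passed its test but was not stable. The normal libraries lay closer together than the model libraries, a difference that did not pass. Distances were Euclidean on log2 CPM of the 403 miRNAs. The mean distance was 11.6 between normal libraries, with a range of 9.76 to 14.6. It was 17.2 between model libraries, with a range of 13.3 to 19.8, and 16.4 between libraries of different groups. The mean distance between groups exceeded that within groups by 2.02 (exact permutation test over 70 labelings, one-sided, p = 0.0286, the smallest possible). Without miR-20a-3p and miR-551b-3p this difference fell to 0.552 (exact permutation p = 0.114). Leaving out model libraries 2 and 3 gave 1.99 (exact permutation p = 0.0667, the smallest possible there). That setting could not pass whatever the data, so it says nothing on stability. Leaving out any 1 normal library ended the call, with differences of 0.817 to 1.74 (exact permutation p = 0.114 to 0.2). The model group exceeded the normal group in its own mean distance by 5.57 (exact permutation test, two-sided, p = 0.143).

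Model library 1 was nearer to a normal library than to any model library. On average it lay 13.4 from the normal libraries and 15.3 from its own group. Model library 4 lay 14.4 from the normal libraries and 17.3 from its own group. Model library 3 was the farthest from the normal group, at 20.5. The first principal component held 37.7% of the variance, and the normal libraries scored -2.14, -3.95, -4.85 and -8.14 on it. The model libraries scored 0.62, 7.18, 13.0 and -1.75, all above the normal libraries. On the third component (15.7% of the variance) model library 4 stood apart, at 9.51 against -5.97 to 1.45 in the others. The weights that follow are those on the first component. The miRNAs with the largest weights on it were miR-551b-3p (0.39), miR-20a-3p (0.37) and miR-344a-3p (0.21).

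**Figure D1:**
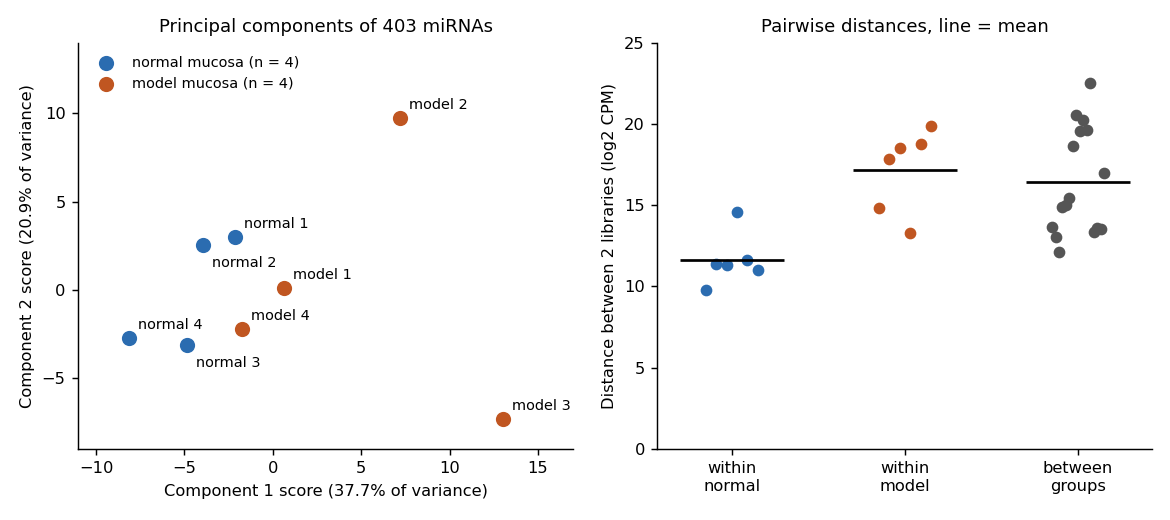
The left panel plots the first 2 principal components of log2 CPM for the 8 libraries, and the right panel plots every distance between 2 libraries with the mean as a line. The model libraries lie to the right of the normal libraries, with model 2 and model 3 far from the rest, and distances within the normal group (mean 11.6) are shorter than those within the model group (mean 17.2).

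The spread of single miRNAs was larger in the model group for 293 of 403 miRNAs (72.7%). The median SD of log2 CPM was 0.28 in the normal group and 0.43 in the model group. An SD over 1 was found for 7 miRNAs in normal and 28 in model mucosa. The median standard error of a log2 fold change was 0.27.

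One miRNA passed the edgeR quasi-likelihood test after Benjamini-Hochberg adjustment over all 403 miRNAs. This was miR-20a-3p, higher in the model, so 1 of 403 (0.248%) was called higher and 0 (0.00%) were called lower. At an unadjusted p under 0.05, 17 miRNAs (4.22%) were higher and 12 (2.98%) were lower. DESeq2 called 5 higher and 2 lower, and limma-trend and robust quasi-likelihood each called 1 higher and 0 lower. Log2 fold changes were positive for 198 of 403 miRNAs (49.1%), with a median of -0.0072. With library totals in place of TMM that median moved to -0.12, so changes are read relative to it. Changes of more than 1 on the log2 scale were found for 12 miRNAs upward and 5 downward. Groups did not overlap for 7 miRNAs with all model libraries above all normal libraries (1.74%) and for 10 with all below (2.48%). Under random labels each direction is expected for 1 in 70 miRNAs, so non-overlap of single miRNAs is given below as description only.

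**Figure D2:**
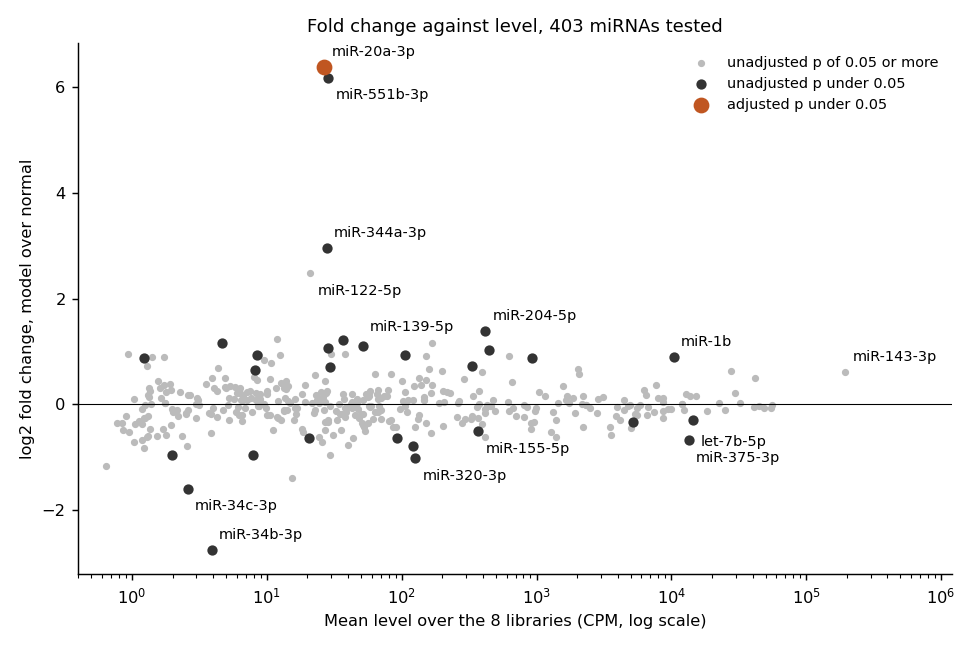
Each point is 1 of the 403 miRNAs tested, with its mean CPM over the 8 libraries on a log axis and its log2 fold change, model over normal. miR-20a-3p (6.38) and miR-551b-3p (6.18) stand far above the rest, and most miRNAs above 1000 CPM lie within 1 of 0.

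miR-20a-3p is the less abundant arm of a hairpin of the miR-17-92 cluster, a polycistron known for driving proliferation. Its level was 0.591, 0.601, 0.796 and 0.491 CPM in the normal libraries, from 6, 7, 9 and 6 counts. In the model libraries it was 28.0, 17.7, 142 and 21.8 CPM, from 284, 166, 1375 and 264 counts. All 4 model libraries were above all 4 normal libraries, and model library 3 was the highest. The log2 fold change of miR-20a-3p was 6.38 (SE 0.82, edgeR adjusted p = 0.00772). Since the normal libraries held 6 to 9 counts, it met the count filter only through the model libraries, which weakens the support that the pass gives. With no count filter it passed as well (edgeR adjusted p = 0.00157). It passed in each of the 19 alternatives run on it. Without model libraries 2 and 3 it was 5.33 (edgeR adjusted p = 1.65e-05).

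The partner arm of the same hairpin did not pass. miR-20a-5p was at 1626, 1504, 1832 and 1482 CPM in normal mucosa and 1662, 912, 2408 and 1806 CPM in the model (log2 fold change 0.07, SE 0.26). Of 13 arms of the miR-17-92 cluster in the table, 11 were tested, 1 was called and 10 had a positive log2 fold change. The median of the 11 was 0.11, and it was 0.02 without model library 3 and 0.29 without model library 2. In normal mucosa the cluster summed to 4833 ± 650 CPM and in the model to 5213 ± 1737 CPM (SD, n = 4), and the libraries overlapped.

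miR-20b-3p comes from the related miR-106a-363 cluster, and its model counts are not the same in the 2 deposited tables. The table of normal and model libraries gives 3, 3, 7 and 5 counts in normal libraries and 5, 2, 0 and 0 counts in model libraries, and it fell under the count filter. The second deposited table, which holds the same model libraries, gives 251, 152, 1003 and 254 counts. For the other 621 of 622 shared miRNAs, miR-20a-3p among them, the model counts were identical. With the model counts of the second table, miR-20b-3p would stand at a log2 fold change of 6.67 (SE 0.77, edgeR adjusted p = 0.00301). The normal counts in that fit are from the first table, because the second holds no normal library. A difference between the tables therefore cannot be told apart from a difference between the groups. It also met the count filter only through the substituted model counts, so this value is no support for a change.

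Model library 3 was the highest and model library 2 the lowest both in these counts and in miR-20a-3p. No label or header says which of the 2 tables holds the intended counts. None says how reads were assigned to miR-20a-3p and miR-20b-3p, so the level of each is uncertain to that extent.

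The 3p arms of miR-34b and miR-34c, members of a family induced by p53 and expressed in ciliated and other epithelia, were low in every library and lower in the model. miR-34b-3p was at 6.41, 4.55, 7.87 and 8.42 CPM in normal and 1.18, 1.60, 1.14 and 0.166 CPM in model libraries. The groups did not overlap, and the log2 fold change was -2.75 (SE 0.49) with an edgeR adjusted p of 0.0511, just outside the threshold. miR-34c-3p was at 3.65, 2.83, 4.33 and 4.74 CPM in normal and 0.197, 1.50, 2.49 and 0.993 CPM in model libraries. Its groups did not overlap either, with a log2 fold change of -1.59 (SE 0.52, edgeR adjusted p = 0.498).

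The more abundant 5p arms were not uniformly lower. miR-34c-5p was at 89.6, 98.1, 122 and 105 CPM in normal and 118, 68.1, 632 and 105 CPM in model libraries. miR-34a-5p was at 520, 668, 326 and 236 CPM in normal and 398, 494, 2113 and 285 CPM in model libraries. Both were high in model library 3 alone, and the other 3 model libraries lay within or just below the normal range. miR-34b-5p, highest in normal library 4 at 94.6 CPM, was at 13.1 to 25.8 CPM in the model (log2 fold change -0.96, SE 0.60). Of the 9 arms of the miR-34 and miR-449 families, 6 were tested and 3 had a positive log2 fold change. Their median was -0.28 and its sign was not stable: it was 0.22 without normal library 4, -0.52 without model library 3 and 0.40 with no count filter.

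miRNAs that share a seed were then summed and tested together. Of 299 seed families tested, 58 had more than 1 member, 2 passed (0.669%) and 26 had an unadjusted p under 0.05 (8.70%). One was miR-20a-3p, alone in its family (log2 fold change 6.36, edgeR adjusted p = 0.00225). With 1 member, this family repeats the single-miRNA test on the same counts and the same filter, so its pass is no separate support. The other family that passed was the pair of miR-34b-3p and miR-34c-3p. Their sum was 10.6, 7.91, 13.2 and 14.4 CPM in normal and 1.47, 3.57, 3.74 and 1.35 CPM in model libraries. The sum fell by 2.19 on the log2 scale (SE 0.39, edgeR adjusted p = 0.0285), with no overlap between groups. This call is lost when any 1 of 6 libraries is left out, with adjusted p between 0.0640 and 0.159. Without model libraries 2 and 3 together it remained, at -3.02 (edgeR adjusted p = 0.00456).

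The next families, led by miR-551b-3p (edgeR adjusted p = 0.0861), miR-204-5p (0.172) and miR-139-5p (0.221), did not pass. The let-7 seed, carried by the most abundant differentiation-linked miRNAs, summed to similar levels in both groups, with a log2 fold change of -0.04.

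The 2 arms of 1 hairpin come from the same precursor, so their ratio within a library does not depend on library scaling. Of 227 hairpins with both arms in the table, 126 had enough counts. One ratio passed limma's test after adjustment (0.794%) and 18 had an unadjusted p under 0.05 (14.3%). In miR-20a, the log2 ratio of the 5p to the 3p count was 11.3 ± 0.15 in normal and 5.50 ± 0.99 in model libraries (SD, n = 4). The groups did not overlap, and the difference was -5.76 (SE 0.40). The hairpin met the count filter only through the model libraries, where its 3p arm is high, so it had to differ to be tested and its pass is no separate support for the change of miR-20a-3p. A filter on the mean count over all 8 libraries, added after seeing the data, gave the same difference (limma adjusted p = 1.38e-06). With normal 3p counts all under 10, the hairpin met that filter too only through the model libraries. That pass is therefore no separate support either. The 5p arm stayed the more abundant one in all 8 libraries. The hairpin could not be tested when any 1 model library, or 2 and 3 together, was left out, because the normal 3p counts, all under 10, then leave it below the count filter.

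For miR-34c the same log2 ratio was 4.74 ± 0.28 in normal and 7.25 ± 1.51 in the model, and for miR-34b it was 2.04 ± 1.02 and 4.52 ± 1.66. Neither passed (limma adjusted p = 0.0936 and 0.192), and the groups did not overlap for miR-34c but did for miR-34b. In 11 of 12 alternatives the miR-34c ratio did not pass. Only without model library 2 did it pass, with a difference of 3.11 (limma adjusted p = 0.0104). That library had the model ratio nearest to normal (5.46), so leaving it out favours a pass. The ratio of miR-130b was -2.90 ± 0.21 in normal and -2.26 ± 0.16 in model libraries without overlap, and that of miR-674 was -0.52 ± 0.31 and -1.11 ± 0.34 with overlap. These did not pass either (limma adjusted p = 0.107 and 0.264). The more abundant arm on the group means differed between groups for 4 hairpins, miR-140, miR-144, miR-345 and miR-505, none of which passed.

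**Figure D3:**
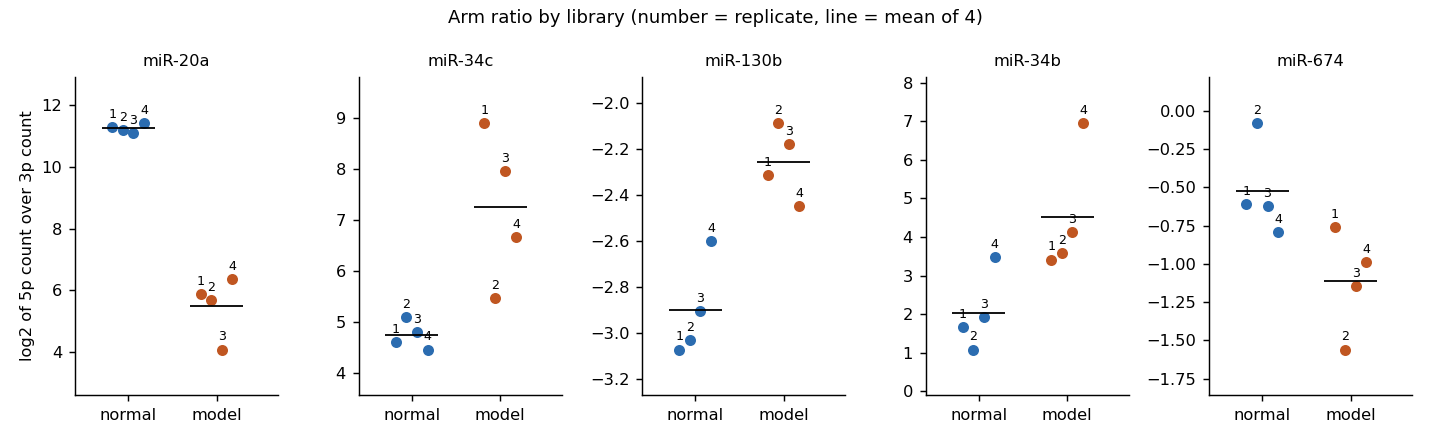
Each panel plots the log2 ratio of 5p to 3p counts of 1 hairpin in each library, numbered by replicate, with the group mean as a line. The 4 normal values of miR-20a lie between 11.1 and 11.4 and the 4 model values between 4.08 and 6.37.

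miR-551b-3p, a miRNA of low level in normal mucosa, was the second largest change but not a uniform one. It was at 1.48, 0.515, 0.796 and 0.327 CPM in normal and 26.8, 168, 29.3 and 0.579 CPM in model libraries. Model libraries 1 to 3 were far above the normal range and model library 4 was inside it. The log2 fold change was 6.18 (SE 1.37, edgeR adjusted p = 0.166), and it did not pass in 16 of 18 alternatives. Without model library 4 it was 6.59 and passed (edgeR adjusted p = 0.0059). That library was the only model library inside the normal range, so leaving it out favours a pass. In normal mucosa only library 1 was above 1 CPM, so miR-551b-3p met the count filter mainly through model libraries 1 to 3. This weakens the support that the pass gives. miR-344a-3p was at 11.4, 145, 34.9 and 5.30 CPM in the model against 4.33 to 9.07 CPM in normal, so that model library 2 set most of its log2 fold change of 2.96 (SE 0.91). Without model libraries 2 and 3 that value was 0.42. miR-344a-3p passed in 1 of 19 alternatives and did not pass in 18.

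miR-204-5p, a miRNA of epithelial and neural tissues, was at 224, 216, 257 and 225 CPM in normal and 357, 600, 1121 and 324 CPM in model libraries. Every model library was above every normal library, with a log2 fold change of 1.38 (SE 0.37, edgeR adjusted p = 0.331). miR-139-5p was at 35.7, 38.1, 31.6 and 25.4 CPM in normal and 49.2, 89.2, 102 and 41.5 CPM in the model, again with no overlap (log2 fold change 1.11, SE 0.31). miR-338-3p (0.73), miR-380-3p (0.88), miR-29c-5p (0.22) and miR-503-3p (0.26) completed the 7 that were higher without overlap, beside miR-20a-3p. Without model libraries 2 and 3 the log2 fold change of miR-204-5p was 0.59 and that of miR-139-5p was 0.50. Each of these 2 passed in 1 of 19 alternatives and did not pass in 18.

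Among the miRNAs that were lower without overlap, miR-320-3p was at 105, 164, 166 and 238 CPM in normal and 90.4, 93.0, 59.7 and 88.2 CPM in the model. That is a log2 difference of -1.02 (SE 0.27, edgeR adjusted p = 0.331). miR-375-3p, abundant in endocrine cells and in gastric epithelium, was at 14590, 18994, 13558 and 19022 CPM in normal and 12885, 12554, 5064 and 11018 CPM in the model (-0.67, SE 0.27). Model library 3 was the lowest. miR-155-5p, induced in activated immune cells, was at 401, 433, 430 and 464 CPM in normal and 346, 309, 227 and 338 CPM in the model (-0.50, SE 0.18). miR-339-3p (-0.63), let-7b-5p (-0.30), let-7g-5p (-0.10), miR-3547 (-0.83) and miR-676 (-0.27), with miR-34b-3p and miR-34c-3p, made up the remainder. None of these passed after adjustment in the reported fit. In the 19 alternatives, miR-34b-3p passed in 7 and miR-320-3p in 1.

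**Figure D4:**
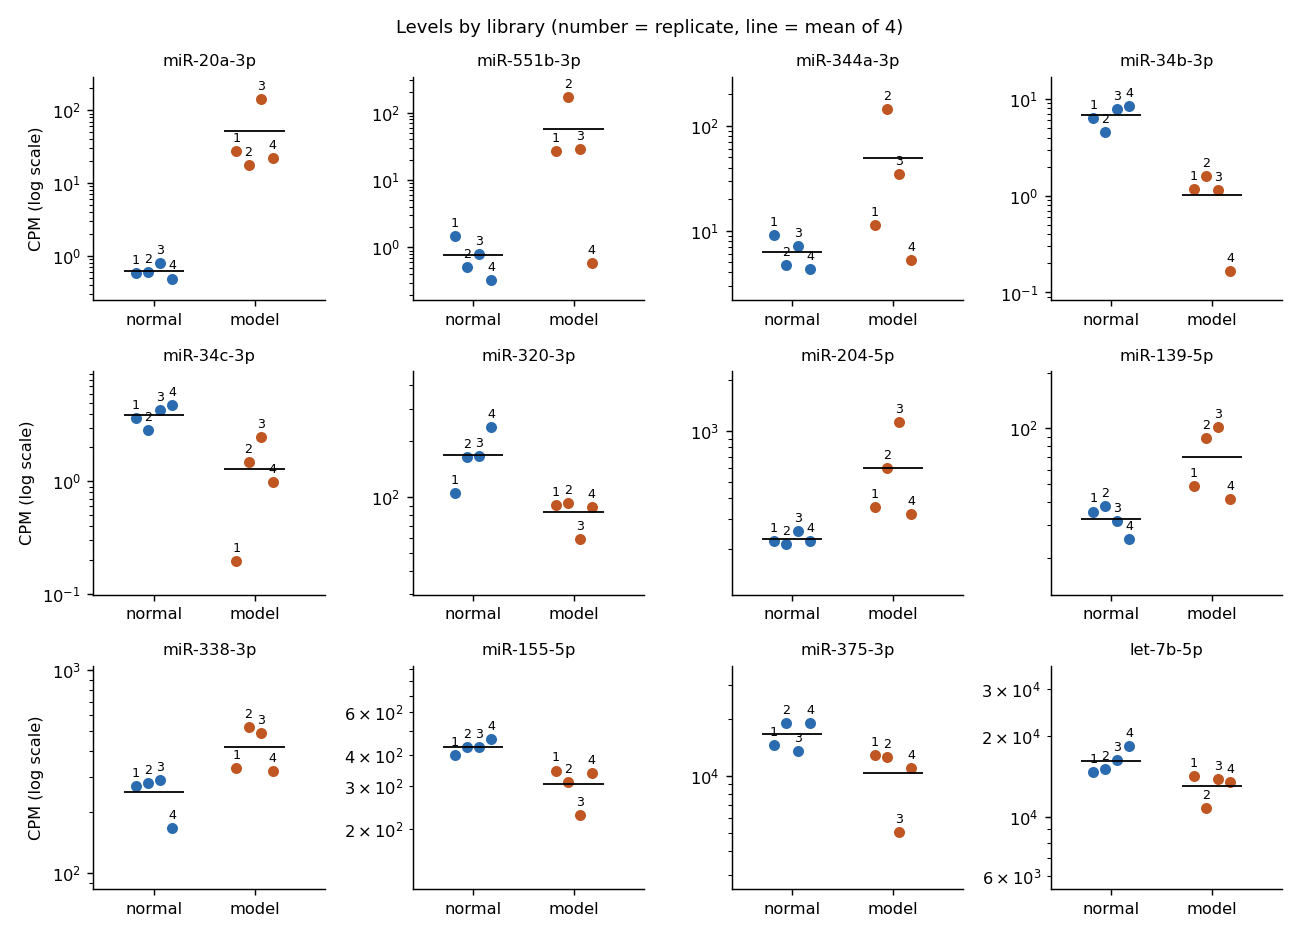
Each panel plots the CPM of 1 miRNA on a log axis in the 4 normal and 4 model libraries, numbered by replicate, with the group mean as a line. miR-20a-3p, miR-34b-3p, miR-34c-3p, miR-320-3p, miR-204-5p, miR-139-5p, miR-338-3p, miR-155-5p, miR-375-3p and let-7b-5p do not overlap between groups, while miR-551b-3p and miR-344a-3p do.

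Tissue composition was described by lists of marker miRNAs, whose counts are read beside the percentages above. Each list below overlapped between groups in its summed level. Epithelial markers were abundant in every library. The miR-200 family summed to 67325 to 79044 CPM in normal and 52918 to 83670 CPM in model libraries. Of its 9 arms tested, 3 had a positive log2 fold change, with a median of -0.03 that ran from -0.17 to 0.06 on leaving out each library. Muscle markers were abundant as well, and miR-143-3p alone held 12.3% to 29.2% of the counts of a library.

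The muscle lists were high in model libraries 2 and 3. The smooth muscle markers, 4 arms of miR-143 and miR-145, summed to 216553, 204266, 161552 and 129711 CPM in normal and 212397, 394347, 344884 and 142133 CPM in model libraries. All 4 had positive log2 fold changes, with a median of 0.62 against -0.0072 over all miRNAs, and none was called. The striated muscle list (miR-1, miR-133, miR-206, miR-208 and miR-499) summed to 9966, 9473, 8216 and 6215 CPM in normal and 9855, 22338, 23685 and 6878 CPM in the model. Of its 7 arms tested, 6 were positive (median 0.90), 5 had an unadjusted p under 0.05 and none was called. Those 5 are not separate markers. miR-1b and miR-1-3p were identical at 21 of 22 positions, and the rest were arms of miR-133a and miR-133b. Model libraries 1 and 4 lay inside the normal range of both lists. Without model libraries 2 and 3 the medians were 0.01 for both lists. Without model library 2 alone the smooth muscle median was 0.39.

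Single muscle miRNAs showed the same division of the model group. miR-1b was at 8655, 8161, 7002 and 5328 CPM in normal and 8502, 19407, 20569 and 5889 CPM in the model. miR-133a-3p was at 486 to 725 CPM in normal and 756, 1687, 1802 and 545 CPM in the model. The cardiac and slow-muscle miRNA miR-499-5p did not follow, at 141 to 146 CPM in normal and 105, 107, 113 and 152 CPM in the model. How much muscle in the samples contributed to the other differences was not tested. The nerve list had 7 of 12 arms positive, and its median of 0.31 ran from 0.15 without model library 2 to 0.65 without model library 1. It summed to 1133 to 1378 CPM in normal and 1437, 2223, 1670 and 1224 CPM in the model.

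Gastric and endocrine epithelial markers (miR-375, miR-7, miR-148a, miR-204 and miR-211) summed to 23523 to 33067 CPM in normal and 23939, 21426, 12209 and 23146 CPM in the model. Of the 9 arms tested 3 were positive, the median log2 fold change was -0.26, and it was 0.03 without model libraries 2 and 3. Leaving out each library gave -0.31 to -0.08, nearest to 0 without model library 3. At an unadjusted edgeR p under 0.05, 2 arms were lower (miR-375-3p and miR-7a-5p) and 1 was higher (miR-204-5p). None of the 9 was called. miR-148a-3p was at 5511, 3747, 1351 and 6235 CPM in the model against 4624 to 6789 CPM in normal. Squamous markers (miR-205, miR-203 and miR-31), which belong to the forestomach in rodents, summed to 12852, 9153, 10003 and 9104 CPM in normal and 7359, 7193, 9315 and 6876 CPM in the model, with 1 of 5 arms positive and a median of -0.58. Normal library 1 had the highest miR-205 (6469 CPM) and miR-203a-3p (3127 CPM), and without it the median was -0.31.

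Intestinal-type markers, which rise where gastric epithelium takes on an intestinal form, were highest in model library 3 and lowest in model library 2. The list of miR-192, miR-194 and miR-215 summed to 8954 to 15274 CPM in normal and 12252, 6656, 22267 and 13710 CPM in the model. All 4 arms tested were positive with a median of 0.22. That median was -0.09 on leaving out model library 3 and 0.45 on leaving out model library 2. miR-192-5p was at 11584 CPM in model library 3 and miR-215 was at 30.1 CPM there, against 5.15 to 7.77 CPM in normal. None of these arms was called.

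Leukocyte markers did not pass in either direction. None of the 6 leukocyte arms tested (miR-142, miR-150, miR-223 and miR-342) was positive, with a median of -0.25. Leaving out each library gave medians from -0.39 without model library 3 to -0.09 without normal library 1. Both arms of miR-142 were near 0, at -0.02 and -0.05. The list summed to 4034 to 5011 CPM in normal and 4041, 2827, 5566 and 3805 CPM in the model, and none was called by edgeR. The endothelial arms of miR-126a had log2 fold changes of -0.13 and -0.05, and the mesenchymal list had a median of 0.02 that turned to -0.12 on library totals. Erythroid markers varied widely in both groups, at 43.2 to 159 CPM in normal and 33.0 to 130 CPM in the model. miR-122-5p, the liver miRNA, was at 2.07, 2.14, 94.5 and 44.0 CPM in model libraries and 2.49 to 11.1 CPM in normal, and the pancreatic miR-217-5p was at most 5.72 CPM in any library.

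Of the inflammation-induced list, miR-21-5p and miR-146a-5p were high in 1 model library, and miR-155-5p, described above, was at its lowest there. miR-21-5p was at 36235, 36479, 89617 and 32839 CPM in the model against 31345 to 37836 CPM in normal. miR-146a-5p, which restrains signalling to NF-kB, was at 1353, 1226, 6080 and 1353 CPM in the model against 1434 to 1759 CPM in normal. Apart from library 3, all model values of miR-146a-5p lay below the normal range and those of miR-21-5p inside it. Of 10 arms tested on this list 6 were positive, 4 were negative and none was called. Their median of 0.07 turned to -0.03 on library totals and to -0.05 without model library 1. Model library 3 also stood apart from the other 3 model libraries in 17 of 403 miRNAs, 15 of them high, where the other 7 libraries stood apart in their own group for 0 to 10.

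Many abundant miRNAs hardly varied over the 8 libraries. Among miRNAs above 100 CPM, the smallest coefficients of variation were those of let-7f-5p (4.31%), let-7g-5p (4.86%), miR-29a-3p (5.43%) and let-7a-5p (5.59%). The let-7 family had 7 of 20 arms positive and a median of -0.04, which turned to 0.02 with upper-quartile factors and to 0.06 without model library 1. The miR-29 family, regulators of collagen mRNAs, had 5 of 6 arms positive with a median of 0.15, or 0.06 without model library 4 and 0.26 without model library 3. It summed to 63181 ± 5983 CPM in normal and 64333 ± 2690 CPM in the model (SD, n = 4). miR-221 and miR-222 had 0 of 3 arms positive, with a median of -0.19 that was -0.03 without model library 3 and -0.08 without normal library 4.

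**Figure D5:**
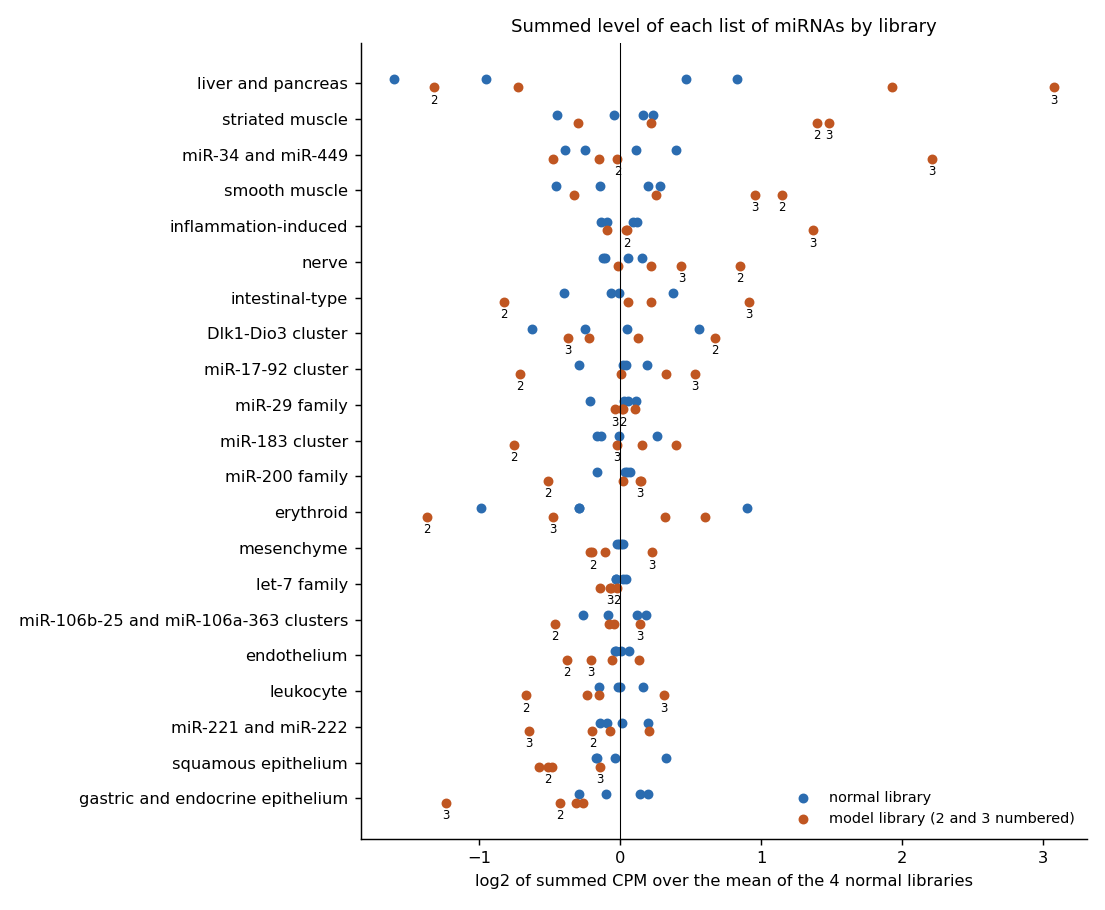
Each row is a list of miRNAs, and each point is the log2 of its summed CPM in 1 library over the mean of the 4 normal libraries. Model libraries 2 and 3 lie together at the right for the smooth and striated muscle lists, and model library 3 alone does so for the inflammation-induced list and for the miR-34 and miR-449 list.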

How the data were processed

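Per the labels' protocols, rat gastric mucosa RNA went into QIAseq miRNA libraries read on an Illumina machine. The submitters' processing notes name Bowtie and DESeq. The sources used here do not give the genome build, the counting rule or whether reads or molecules were counted. Raw counts per mature miRNA and CPM columns were deposited by the authors, per the file headers. The deposited CPM equalled each count over its column total (largest difference 4.86e-05) and served for that check alone.

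Counts were tested with edgeR 4.0.16 (glmQLFit, TMM; filterByExpr, minimum count 10) under R 4.3.3, with Benjamini-Hochberg adjustment at 0.05. Standard errors are the log2 fold change over the square root of F. Seed families were summed counts tested likewise. Arm ratios, with 0.5 added to each count, needed 10 counts in both arms in 4 libraries and were tested with limma 3.58.1. Separation used exact permutation. Replicates all differed by more than sampling noise (chi-square at least 174.8 per degree of freedom). The procedure was tested on simulated data.

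Lists and members were chosen with earlier results of these data known. Named miRNAs were drawn by the rule that follows, and not every miRNA that met it is named. The rule took those that passed, the 20 with the smallest p and the 10 most abundant. From each list it took the 3 most abundant and any with p under 0.05. It also took the 10 with the largest first-component weight, the 10 least variable above 100 CPM and those above 10 CPM without overlap. The leading 5 hairpins and families and miR-20b-3p completed it. Outside the rule, miR-215, miR-499-5p, miR-196a-5p and the hairpins whose more abundant arm differs were named after their values were seen, and miR-17-1-3p and miR-211-5p for their sequences. Alternatives were other scalings, count filters and tests (DESeq2 1.42.0, limma-trend, robust quasi-likelihood), a replicate block and leaving out libraries.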

Additional observations from a re-analysis of the deposited data

Results flagged for a closer look

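Among 242 groups of 4 library values scanned, 23 had 1 library far from the other 3 by Dixon's criterion (9.50%). Chance gives about 1 in 20, or 12.1 groups, if groups are independent and not selected. Here the miRNAs were chosen from these data and the list sums share members with them, so the excess is not a tested result. Over all 403 miRNAs tested, such a library was found for 25 miRNAs in the normal group and 30 in the model group.

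Model library 3 stood apart as the highest of its group in miR-146a-5p (6080 CPM, others 1226 to 1353), miR-21-5p (89617 CPM), miR-34a-5p (2113 CPM), miR-34c-5p (632 CPM) and miR-20a-3p (142 CPM). It also did so in the summed inflammation-induced list (97389 CPM) and the summed miR-34 and miR-449 list (2795 CPM). It was the lowest in miR-320-3p (59.7 CPM) and miR-3547 (0.104 CPM). Model library 2 was lowest in miR-25-3p (2271 CPM) and model library 4 in miR-676 (43.8 CPM).

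Normal library 1 was the highest of its group in the squamous markers miR-205 (6469 CPM), miR-203a-3p (3127 CPM) and miR-203b-3p (18.4 CPM), in miR-142-3p (2911 CPM) and in the pancreatic miR-217-5p (5.72 CPM). It was the lowest in miR-124-3p (1.87 CPM) and in the summed miR-200 family (67325 CPM). Normal library 4 was lowest in miR-133a-3p (486 CPM) and miR-338-3p (168 CPM) and highest in miR-222-3p (55.7 CPM). Normal library 3 was lowest in let-7f-5p (53170 CPM) and miR-293-5p (0.884 CPM).

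In the second deposited table, used above only for the miR-20b-3p fit, the model counts of miR-20b-3p ran from 152 to 1003. The normal libraries, which only the first table holds, had 3 to 7 counts.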

How the results depend on the processing

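miR-20a-3p passed under each alternative run on single miRNAs. None of the named miRNAs, seed families and hairpins recomputed changed sign, but these were picked for small p or for groups without overlap. Medians of lists, which had no test, did change sign under some settings, as given beside them. The number of miRNAs that passed was 1 in the reported fit. It was 2 with upper-quartile factors, with library totals, with the top 5 miRNAs kept out of the library sizes and with at least 50 counts in 4 libraries, miR-34b-3p being the second each time. It was 3 with no count filter, which added miR-196a-5p, 3 with the second table's miR-20b-3p counts (chosen after seeing the data), and 7 with DESeq2. Leaving out each library gave 1 to 4. Seed families that passed went from 2 to 5 with DESeq2, and from 1 to 2 on leaving out each library. Arm ratios that passed went from 1 to 0 without model libraries 2 and 3 together, and from 0 to 2 on leaving out each library. The separation of 2.02 was 0.552 without miR-20a-3p and miR-551b-3p and 1.99 without model libraries 2 and 3, both chosen after seeing the data, and 0.817 to 3.83 on leaving out each library. The cause was not tested.

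The replicate numbers did not pair the libraries: same-numbered libraries deviated together with correlations of -0.34, 0.31, 0.14 and -0.0021. With the replicate block 1 miRNA, 3 seed families and 2 arm ratios (miR-20a and miR-34b) passed.

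Counts of 6 to 9 per normal library limit the precision of the miR-20a-3p fold change, and low counts likewise limit the 3p arms of miR-34b and miR-34c. Of 554 log2 fold changes recomputed, 528 kept direction and side of the threshold, 20 came to pass and 6 no longer passed.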

Other observations

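miR-196a-5p, a miRNA of a Hox locus, fell under the count filter of the single-miRNA test and entered only the sum of its seed family. It was at 0.0986, 0.0858, 0.0884 and 0.0818 CPM in normal and 2.17, 2.56, 1.24 and 0.662 CPM in model libraries, with no overlap between groups. The normal values lie at the floor of the counts, so the pass of miR-196a-5p with no count filter rests on the model libraries. The shares of non-overlap given above cover only the miRNAs tested, and miR-196a-5p is not among them. miR-196a-5p was named after its values were seen.

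The imprinted Dlk1-Dio3 cluster, a large set of miRNAs expressed in mesenchymal, neural and muscle cells, had 76 arms in the table. Of 42 tested, 32 had a positive log2 fold change, with a median of 0.16 and none called. Without model library 2 the median was -0.06, and without normal library 1 it was 0.40. Its sum was 1470, 1033, 841 and 646 CPM in normal and 855, 1588, 773 and 1091 CPM in model libraries.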
